A study of Mus musculus with 8 samples.

Results

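Mouse embryonic fibroblasts (MEFs) that expressed H3.3 K27M were compared directly with MEFs that expressed *EZHIP*, over all 875 genes of the deposited expression table and 4 of its 8 RNA-seq libraries. Both lines, with 2 libraries each, were made from the same *EED*-floxed parental MEFs by stable lentiviral expression. The other 4 libraries were 2 of the parental cells (control), in which *EED* is floxed but present, and 2 of an EED-null line, a single clone obtained from the same cells with Cre. They served as reference levels and for the estimate of the spread. The labels do not say whether the 2 libraries of a group came from separate cultures, so the p-values measure only the spread between these libraries. Neither transgene is among the listed mouse genes, so the labels were not checked through them.

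PRC2 is the complex that methylates lysine K27 of histone H3, a mark found at silenced developmental genes, and EED is 1 of its core subunits. H3 K27M, the oncohistone of diffuse midline gliomas, and EZHIP, a protein expressed in PFA ependymomas, both inhibit the EZH2 subunit of PRC2. Genes for developmental transcription factors, which fibroblasts keep silent under H3K27me3, are a main class of PRC2 targets.

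The list was selected by the authors on EZHIP against control cells at 2-fold or more, and this selection bears on each result below. A gene that stayed at its control level in K27M cells differs from EZHIP by the way the list was made. The selection did not use the K27M libraries. Of the listed genes, 495 had a higher and 380 a lower mean in EZHIP than in control cells. The values are estimated reads of a gene divided by a size factor of the library. No scaling by gene length was made, so levels were compared between libraries and not between genes. The listed genes held 264279 to 400267 estimated reads in the 4 compared libraries, and the replicates of each group differed by more than sampling noise.

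The cells with the 2 inhibitors differed at most of the listed genes. limma on log2(value + 1), with Benjamini-Hochberg adjustment over the 875 genes, called 514 genes different (58.7%) at an adjusted p under 0.05 and at least 2-fold. Of these, 285 were higher (32.6%) and 229 were lower (26.2%) in K27M than in EZHIP cells. The difference was at least 4-fold for 277 genes, of which 161 were higher and 116 lower in K27M, and it was at least 16-fold for 34 genes in each direction. Both K27M libraries lay on the same side of both EZHIP libraries for 785 genes (89.7%), the 514 called ones included. The smallest two-sided p an exact permutation of 2 against 2 libraries allows is 0.333, and each call therefore depends on the variance that limma pools over genes and groups.

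The median log2 difference of all listed genes, K27M minus EZHIP, was 0.13. Rescaling the libraries on the listed genes lowered it to 0.01, and the calls were then 256 higher and 258 lower, but no called gene changed its direction.

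**Figure D1:**
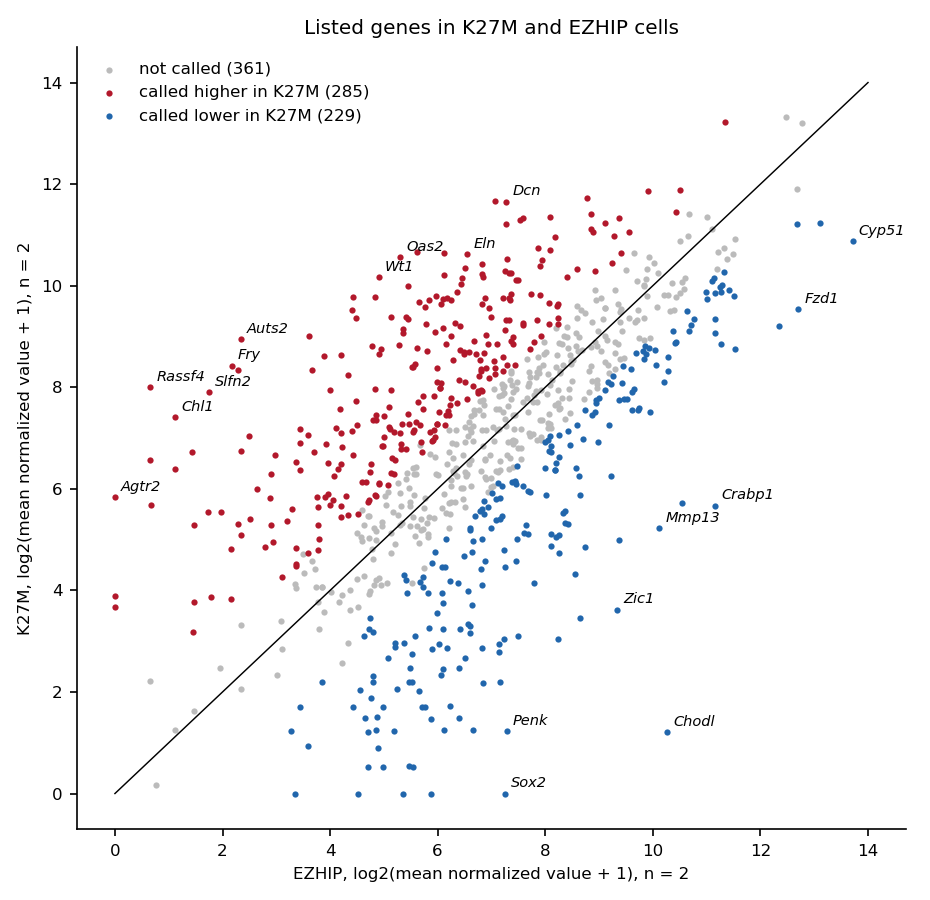
Mean normalized value in K27M cells (vertical) against EZHIP cells (horizontal) for the 875 listed genes, both axes as log2(mean value + 1) of 2 libraries. Red points were called higher in K27M (285), blue points lower (229) and grey points were not called (361). The line marks equal levels. *Sox2* and *Chodl* lie at or near 0 in K27M alone, *Agtr2* and *Rassf4* at or near 0 in EZHIP alone.

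The calls were split by the direction in which the list had been selected. Among the 495 genes higher in EZHIP than in control, 198 were called lower in K27M than in EZHIP, and 88 were called higher. Among the 380 genes lower in EZHIP than in control, 197 were called higher in K27M and 31 lower. These shares follow in part from the selection, and no test was made of them.

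The order of the group means showed where K27M cells lay. Of the 198 genes that were up in EZHIP and called lower in K27M, 117 had a K27M mean between those of control and EZHIP, 77 had a K27M mean below control and 4 were at the control level of 0. Of the 197 genes that were down in EZHIP and called higher in K27M, 67 lay between control and EZHIP and 130 lay above control. The 88 and 31 other called genes were farther from control in K27M than in EZHIP, in the same direction. The median level of the called lower genes was 36.2 in K27M and 173 in EZHIP, beside 43.4 in control and 144 in EED-null cells. For the called higher genes it was 281 in K27M and 51.2 in EZHIP, beside 99.6 in control and 83.6 in EED-null cells. The EED-null mean was nearer to the EZHIP than to the K27M mean, on the log2 scale, for 58.2% of all listed genes, for 62.5% of the genes called higher and for 63.3% of those called lower in K27M.

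**Figure D2:**
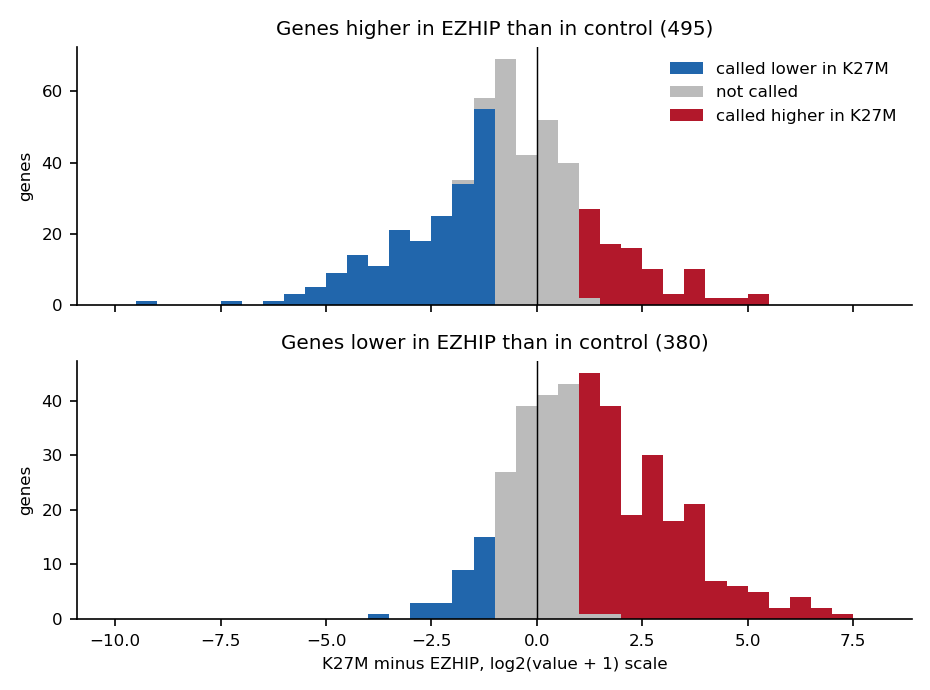
Number of genes by their K27M minus EZHIP difference on the log2(value + 1) scale, for the 495 genes with a higher EZHIP than control mean (top) and the 380 with a lower one (bottom). Blue and red bars are genes called lower and higher in K27M, and grey bars genes that were not called. The top panel holds 198 blue and 88 red genes, the bottom panel 31 blue and 197 red.

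Interferon-response genes were higher in K27M than in EZHIP cells almost throughout. These genes are switched on by type I and II interferons through STAT and IRF transcription factors and encode antiviral enzymes and GTPases. Of the 38 listed interferon effectors, 37 were called higher in K27M than in EZHIP cells and 1 was called lower. The median log2 difference of the list was 3.17, against 0.13 for all listed genes. All 37 genes called higher had a lower mean in EZHIP than in control cells. Of all 380 listed genes with a lower EZHIP mean, 51.8% were called higher in K27M, with a median difference of 1.07. The 37 differences ran from 1.25 for *Samd9l* to 6.77 for *Oas1g*. The median level of the 38 genes was 770 in K27M and 72.4 in EZHIP, beside 276 in control and 46.8 in EED-null cells.

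The leading effectors were at their highest in K27M cells in both libraries. *Oas1g* (chromosome 5 of mm9, 121326151 to 121337622), an oligoadenylate synthetase that activates RNase L, had 308 and 339 in the K27M libraries, 0 and 7.80 in EZHIP, 138 and 139 in control and 0 and 2.55 in EED-null. Its log2 difference was 6.77 (standard error 1.06, adjusted p = 0.0013), and the large error comes with the few reads in EZHIP. *Slfn2*, a Schlafen family regulator of lymphoid cell quiescence, had 259 and 217 in K27M, 3.55 and 1.14 in EZHIP and 37.6 and 42.1 in control, with a log2 difference of 6.25 (adjusted p = 4.89e-05). *D14Ertd668e*, a gene of the *Phf11* cluster, had 521 and 502 in K27M and 11.1 and 11.4 in EZHIP, against 154 and 164 in control. In these 3 genes the K27M libraries lay above both control libraries and the EZHIP libraries below them. The same arrangement held for 35 of the 38 effectors. Members of the *Oas1*, *Slfn*, *Gbp*, *Phf11* and *Ifit3* families have near-identical copies between which RSEM can split reads, so their single-gene values are uncertain.

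The exception was *Ifitm1*, a membrane protein that restricts viral entry and is also made in primordial germ cells. It had 4.64 and 12.2 in K27M against 85.2 and 84.4 in EZHIP, 21.6 and 26.6 in control and 129 and 123 in EED-null cells. It was called lower in K27M (log2 difference -3.31, adjusted p = 3.15e-04), with the EZHIP and EED-null libraries above control.

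The listed sensors and regulators of the response, 9 in all, were each called higher in K27M, with a median log2 difference of 2.62. All 9 had a lower mean in EZHIP than in control cells. *Irf7*, the transcription factor that amplifies interferon production, had 982 and 1109.5 in K27M, 89.95 and 80.9 in EZHIP, 224 and 210.5 in control and 63.8 and 27.1 in EED-null cells (log2 difference 3.60, adjusted p = 1.93e-04). *Sp110* and *Sp140*, chromatin readers of the speckled protein family, had log2 differences of 4.42 and 3.17. Both EED-null libraries were at 0 for *Sp140*, where K27M had 148 and 143 and EZHIP 21.8 and 10.6. The RNA sensors *Ddx58* (RIG-I), *Ifih1* (MDA5), *Dhx58* and *Tlr3* differed by 1.69, 2.62, 2.86 and 1.92. The signal transducer *Stat2* differed by 2.12, and *Nlrc5*, the transactivator of class I genes, by 2.05.

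Antigen-presentation genes were also higher in K27M. The 6 listed genes were each called, and 5 of them had both K27M libraries above and both EZHIP libraries below control. All 6 had a lower mean in EZHIP than in control cells. Unlike most interferon effectors, they had a higher mean in EED-null than in EZHIP cells in each of the 6 cases, a difference that was not tested. *H2-K1*, a classical class I heavy chain, had 9111 and 10064 in K27M, 2637 and 2542 in EZHIP, 5942 and 5814 in control and 3083 and 3179 in EED-null cells (log2 difference 1.89, adjusted p = 1.48e-05). The immunoproteasome subunit *Psmb8* differed by 2.004, and the peptide transporters *Tap1* and *Tap2* by 1.72 and 1.08. For *Tap2*, K27M had 492 and 536 and control 613 and 578, so that K27M was not above control. *H2-Q6* and *H2-Q7* differed by 4.53 and 3.78, but they are near-identical copies.

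**Figure D3:**
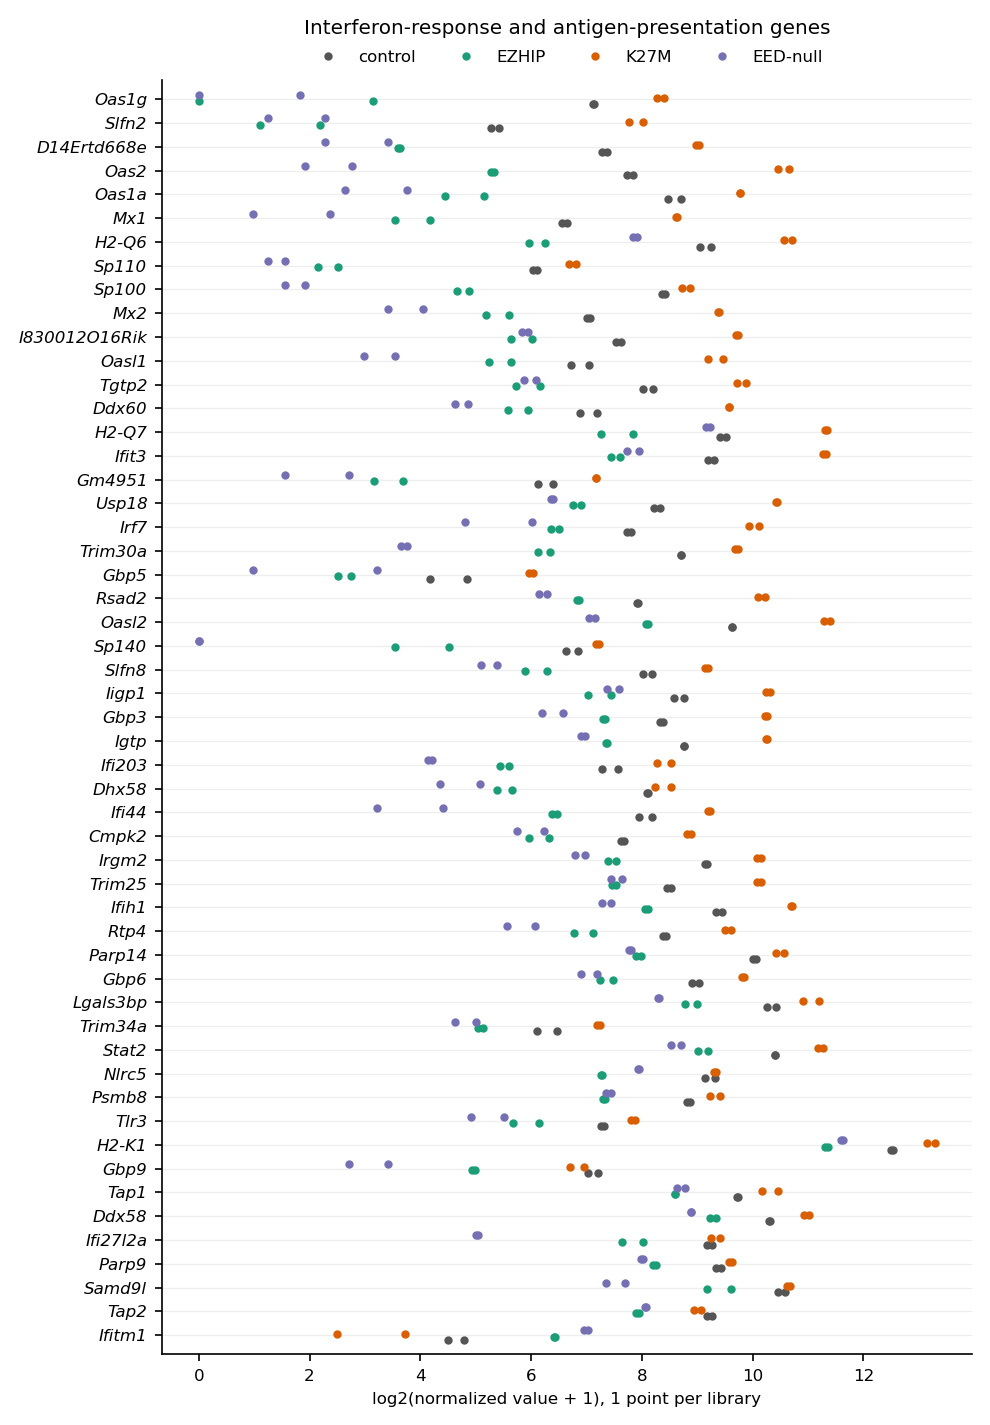
Interferon-response and antigen-presentation genes, ordered by their K27M minus EZHIP difference from the largest at the top. Each point is 1 library and the horizontal axis is log2(normalized value + 1). The K27M points lie to the right of the EZHIP points in each row but the last, *Ifitm1*. EED-null points lie mostly at or to the left of EZHIP.

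Many promoters of interferon-response genes carry the interferon-stimulated response element, whose core is 2 GAAA blocks with any 2 bases between them. The following stretches of RefSeq promoters (build GRCm38.p6, 5′ to 3′ on the strand of the gene) are shown because they hold that core, in capitals, on either strand. They were picked for holding it. Of the other genes described above, *Ddx58* and *Ifih1* also held the core. Among effectors not described above, *Ddx60*, *Gbp3*, *Gbp5*, *I830012O16Rik*, *Ifi203*, *Irgm2*, *Oas1a*, *Rsad2*, *Slfn8*, *Tgtp2*, *Trim30a* and *Trim34a* held it in a window. Those of *Cmpk2*, *Ifi44*, *Lgals3bp*, *Oasl1*, *Oasl2*, *Sp100* and *Trim25* did not hold it. The windows of *Slfn2*, *D14Ertd668e*, *Irf7*, *Samd9l*, *Ifitm1*, *Sp110*, *Sp140* and *Tlr3*, described above, held no such core. Nor did those of the 5 antigen-presentation genes with a matched promoter. The genes of the printed stretches other than *Oas1g* were chosen after their values were seen.
Ifit3 (chr19:34583363-34583392, plus strand): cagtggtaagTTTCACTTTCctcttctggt
Stat2 (chr10:128270266-128270295, plus strand): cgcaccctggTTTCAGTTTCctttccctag
Igtp (chr11:58199512-58199541, plus strand): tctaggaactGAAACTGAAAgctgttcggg
Oas1g (chr5:120887612-120887641, minus strand): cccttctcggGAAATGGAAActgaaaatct
Plxnc1 (chr10:94944944-94944973, minus strand): ttcacaatggGAAAGTGAAAcgcacaagcg
The last stretch, from *Plxnc1*, shows that a gene called lower in K27M can hold the same core. Of all 27025 genes with a promoter in the table, 1079 (3.99%) held it within 250 bases before and 50 bases after the start. Promoters were matched for 26 of the 38 effectors (68.4%) and for 619 of the 875 listed genes, under the 80% needed, so the share of promoters with the core was not compared between called groups. *Ifit3* had 2561 and 2464 in K27M against 174 and 194 in EZHIP and 629 and 587 in control, *Stat2* had 2313 and 2482 against 586 and 519 and 1355 and 1346, and the GTPase *Igtp* had 1208 and 1221 against 164 and 162 and 435 and 434.

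Developmental transcription factors were called mostly in the opposite direction. Of the 50 listed, 25 were called lower (50%) and 7 higher (14%) in K27M than in EZHIP cells, with a median log2 difference of -0.999. A higher mean in EZHIP than in control cells was found for 40 of the 50. Of all 495 listed genes with a higher EZHIP mean, 40% were called lower in K27M, with a median difference of -0.665. The direction of the list thus follows in part from the selection. The 25 lower genes each had a higher mean in EZHIP than in control, and 15 of them held at most 3 reads in both control libraries. In K27M cells 8 of the 25 held at most 3 reads in both libraries, while 18 had a K27M mean between control and EZHIP. EED-null cells had a higher mean than K27M cells for 23 of the 25.

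Factors of the early nervous system had the largest differences in the list. *Sox2* (chromosome 3, 34548927 to 34551383), a factor of neural progenitor and pluripotent cells, was at 0 in both K27M and both control libraries, at 166 and 137 in EZHIP and at 245 and 270.2 in EED-null cells. It was at least 55.98-fold lower in K27M than in EZHIP, taking 3 reads per library as the floor (adjusted p = 1.38e-06). *Otx2*, a forebrain and midbrain regulator, and *Nkx6-1*, a ventral spinal cord and pancreatic factor, were also at 0 in both K27M libraries. EZHIP had 54.4 and 60.4 of *Otx2* and 42.6 and 37.6 of *Nkx6-1*, which makes them at least 21.3-fold and 14.8-fold lower in K27M. *Zic1* (chromosome 9, 91252896 to 91260648), a zinc finger factor of the dorsal neural tube, was detected in each K27M library, at 13.9 and 8.74, and had 643 and 644 in EZHIP and 968 and 1035 in EED-null cells. Its log2 difference was -5.74 (standard error 0.49, adjusted p = 9.51e-05). *Prdm6*, a regulator of smooth muscle genes, had 0.927 and 0 in K27M and 40.2 and 46.7 in EZHIP.

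The 7 factors of this list that were higher in K27M were a mixed set. The list does not hold every transcription factor of the table. *Wt1*, which was higher in K27M with a larger difference than any of the 7, and *Tcfap2c*, which was lower, are outside it and are described below. *Gata4*, a factor of heart and endoderm, was nearly silent in control cells at 1.03 and 0 and had 863 and 960.4 in K27M, 632 and 633 in EED-null and 226 and 197 in EZHIP cells. Its log2 difference of 2.10 was called (adjusted p = 0.0011), but not with a pseudocount of 0.1, where the adjusted p was 0.12. *Bnc1*, a zinc finger factor of keratinocytes and germ cells, had 1185 and 1424 in K27M, 92.3 and 86.6 in EZHIP and 58.2 and 62.02 in EED-null cells (log2 difference 3.85). *Foxo6* differed by 2.19. *Foxp2*, *Etv4*, *Fli1* and *Vax2* differed by 1.93, 1.41, 1.26 and 1.11.

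**Figure D4:**
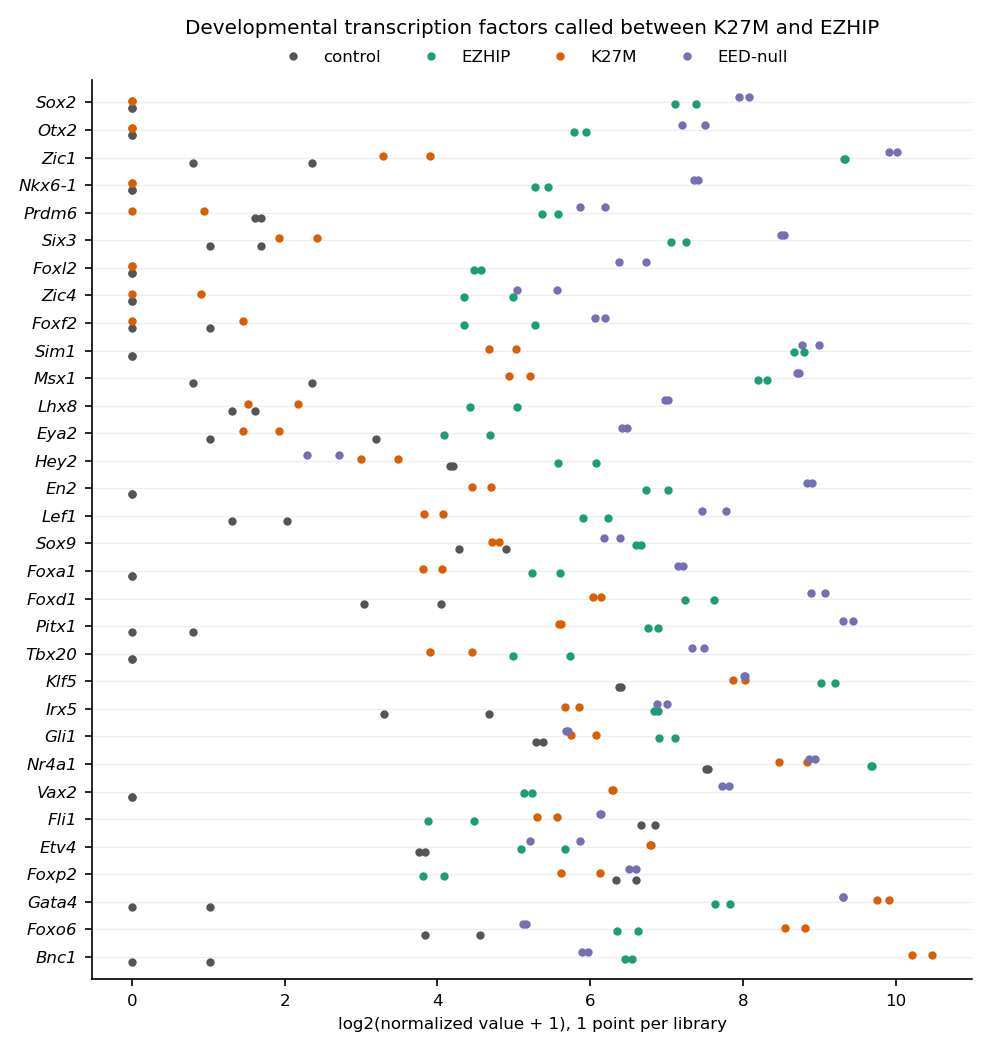
The 32 members of the list of developmental transcription factors called between K27M and EZHIP, from the most lowered (*Sox2*) to the most raised (*Bnc1*) of that list in K27M. Each point is 1 library and the horizontal axis is log2(normalized value + 1). For most of the upper 25 rows K27M lies between control and EZHIP or on control, and EED-null lies at or beyond EZHIP.

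*Hox* genes, which set position along the body axis, did not share that direction. Of the 8 listed, 2 were called higher in K27M, none was called lower by limma (1 at an unadjusted p under 0.05) and 4 were at the same level, which here means that the 95% interval of the difference lay within 1 log2 unit of 0. *Hoxd10* had 66.8 and 70.8 in K27M, 21.3 and 25.1 in EZHIP and 0 in both control libraries (log2 difference 1.53, adjusted p = 5.15e-05). *Hoxb13* differed by 1.23. *Hoxd13*, a factor of the distal limb, had 126 and 149 in K27M and 105 and 88.9 in EZHIP, and EED-null cells had 658 in both libraries. At an adjusted p under 0.05 with no fold cutoff, 1 *Hox* gene was lower in K27M, *Hoxb9* at -0.66.

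Wnt pathway genes were called in both directions. Of 24 listed, 12 were called lower and 7 higher in K27M (50% and 29.2%), beside 26.2% and 32.6% of all listed genes. A higher mean in EZHIP than in control cells was found for 16 of the 24, including 10 of the 12 lower genes. Of all listed genes with a higher EZHIP mean, 40% were called lower, so this direction follows in part from the selection. The lower genes included the receptor *Fzd1*, the ligands *Wnt4* and *Wnt6*, the secreted inhibitor *Sfrp1*, the acyltransferase *Porcn* and the feedback targets *Axin2*, *Lef1*, *Nkd2* and *Rnf43*. *Fzd1* had 722 and 757 in K27M, 6694 and 6685 in EZHIP, 776 and 749.9 in control and 2678 and 2818 in EED-null cells (log2 difference -3.18, adjusted p = 2.69e-06). The K27M libraries overlapped the control range, and *Fzd1* was higher in EZHIP and EED-null than in either. It lies in a block of 20 neighbouring listed genes at the start of chromosome 5, without which 11 Wnt genes were lower. *Sfrp1* had 399 and 467 in K27M, 2858 and 3007 in EZHIP and 31.8 and 19.9 in control, a difference of -2.76. *Axin2*, a direct target of canonical Wnt signalling, differed by -1.93 and *Lef1*, a nuclear effector of the pathway, by -2.13.

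The higher genes were led by *Wnt5a*, a ligand of the non-canonical branch, with 525 and 559.7 in K27M, 54.4 and 67.3 in EZHIP and 239 and 278 in control (log2 difference 3.14, adjusted p = 1.34e-05). The R-spondins, which strengthen Wnt signals, did not go together. *Rspo1* and *Rspo3* were higher in K27M, by 2.64 and 1.76, and *Rspo2* was lower, at -1.30. With a pseudocount of 0.1 the call of *Rspo1* was lost (adjusted p = 0.067).

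In the Notch and Hedgehog pathways, 3 of 12 genes were called higher and 5 lower in K27M (25% and 41.7%). The shares over all listed genes were 32.6% and 26.2%. Without EZHIP replicate 1, 5 were higher. *Hhip*, *Ptch1* and *Gli1*, known targets of Hedgehog signalling, were each lower in K27M, at -3.24, -2.05 and -1.09. *Hhip* had 28.8 and 27.97 in K27M, 282 and 270.2 in EZHIP and 2.05 and 2.21 in control. The Hedgehog co-receptor *Boc* was higher in K27M by 1.37. *Dlk1*, an imprinted Notch-like protein of preadipocytes, had 771 and 929 in K27M, 61.5 and 74.1 in EZHIP and 1434 and 1284 in control (log2 difference 3.63), while its relative *Dlk2* had 6.49 and 6.99 in K27M and 144 and 136 in EZHIP (log2 difference -4.19). The Notch ligand *Jag2* was higher in K27M by 3.21, and the Notch target *Hey2* was lower, at -2.58.

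Of the 13 BMP and TGF-beta genes, 5 were higher and 4 lower in K27M (38.5% and 30.8%), beside 32.6% and 26.2% of all listed genes. The activin subunits *Inhbb* and *Inhba* were lower, at -2.76 and -1.81, and the activin antagonist *Fst* was higher, by 2.03. *Inhbb* had 60.3 and 55.9 in K27M, 405 and 394 in EZHIP and 18.5 in both libraries of control, and *Fst* had 272 and 270.3, 59.2 and 72.96 and 17.5 and 15.5. *Ltbp1*, which holds latent TGF-beta in the matrix, was lower in K27M, with 442 and 476 against 2477 and 2452 in EZHIP and 929 and 975 in control. *Gdf1* differed by 2.99, but it shares a transcript with *Cers1*, so its reads are uncertain.

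Growth factors and their receptors were divided, with 6 of 20 higher and 7 lower in K27M (30% and 35%), beside 32.6% and 26.2% of all listed genes. The insulin-like growth factors went opposite ways. *Igf1* had 2727 and 2420.1 in K27M, 647 and 670.3 in EZHIP and 2822 and 2909 in control (log2 difference 1.96, adjusted p = 1.47e-05). *Igf2*, the imprinted fetal growth factor, had 2301 and 2495 in K27M, 8919 and 8644 in EZHIP, 3589.8 and 3454 in control and 2649.6 and 2438 in EED-null cells (log2 difference -1.87, adjusted p = 1.69e-05). The binding protein *Igfbp2* was lower in K27M as well, at 588 and 594 against 5184 and 5225. *Gdnf*, a neurotrophic factor, had 9.27 and 5.25 in K27M and 144 and 153 in EZHIP, with control at 32.8 and 35.4. The VEGF receptors *Kdr* and *Flt4* were higher in K27M, by 1.83 and 1.93.

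The G1 kinase *Cdk6* and its cyclin partner *Ccnd1* were the 2 called of 4 listed cell-cycle genes, and both were lower in K27M. Over all listed genes 26.2% were called lower. *Cdk6* had 172 and 189.7 in K27M, 1034 and 942 in EZHIP, 154 and 188 in control and 244 and 236 in EED-null cells. Its log2 difference was -2.45, and that of *Ccnd1* was -1.42. *Cdk6* is in the same block of chromosome 5. The inhibitor *Cdkn1a* and *Ccnd2* were at the same level.

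Matrix genes were called lower more often than higher in K27M. Of 34 collagens and other matrix proteins, 15 were lower and 4 higher (44.1% and 11.8%), beside 26.2% and 32.6% of all listed genes. A higher mean in EZHIP than in control cells was found for 9 of the 34. Of the 15 lower genes, 7 had a higher and 8 a lower mean in EZHIP than in control. *Col3a1*, the type III collagen of loose connective tissue, had 2206 and 2517 in K27M, 6797 and 6268 in EZHIP and 17665 and 17245 in control (log2 difference -1.47, adjusted p = 5.55e-05), so K27M was farther below control than EZHIP. *Prelp*, a leucine-rich proteoglycan, had 37.1 and 55.9 in K27M, 348 and 312 in EZHIP and 857 and 836 in control. The 4 higher genes were *Col14a1*, *Dcn*, *Eln* and *Fmod*. *Dcn*, the proteoglycan decorin that binds collagen fibrils, had 3192 and 3255 in K27M, 129 and 179 in EZHIP, 364 and 380.1 in control and 69.3 and 73.6 in EED-null cells (log2 difference 4.40, adjusted p = 4.72e-06). *Eln*, elastin, had 1388 and 1749.6 in K27M, close below 2478 and 2325 in control, and 102 and 83.2 in EZHIP. *Col14a1*, a fibril-associated collagen, differed by 5.37. *Matn4* was called lower at -2.57, a call that was lost without EZHIP replicate 1 (adjusted p = 0.065), without K27M replicate 1 (adjusted p = 0.071) and with a pseudocount of 0.1 (adjusted p = 0.13).

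Among matrix proteases and their inhibitors, 9 of 23 were higher and 6 lower in K27M (39.1% and 26.1%). The shares over all listed genes were 32.6% and 26.2%. Of the 5 listed matrix metalloproteinases, *Mmp3*, *Mmp10*, *Mmp12* and *Mmp13* were called lower and *Mmp19*, at -0.76, was not called. The promoters of *Mmp10* and *Mmp13* lie close together near the start of chromosome 9. The first 10 Mb of that chromosome held 5 listed genes, all called lower in K27M. Whether neighbouring genes changed together was not tested. *Mmp13*, a collagenase, was at 0 in both control libraries and had 34.3 and 38.5 in K27M, 1056 and 1160.5 in EZHIP and 316 and 310.1 in EED-null cells (log2 difference -4.89, adjusted p = 1.38e-06). *Mmp10*, a stromelysin, had 286 and 315 in EZHIP and 7.42 and 6.99 in K27M. Of the ADAMTS proteases, *Adamts3*, *Adamts15* and *Adamts20* were higher in K27M and *Adamts12* and *Adamts17* were lower. *Adamts3*, a procollagen N-proteinase, had 86.3 and 102 in K27M and 0 and 1.14 in EZHIP, where a single read was counted, so its ratio of 165 has a 95% counting interval of 29.7 to 6533. *Fap*, a membrane protease of activated fibroblasts, was higher in K27M by 3.49.

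**Figure D5:**
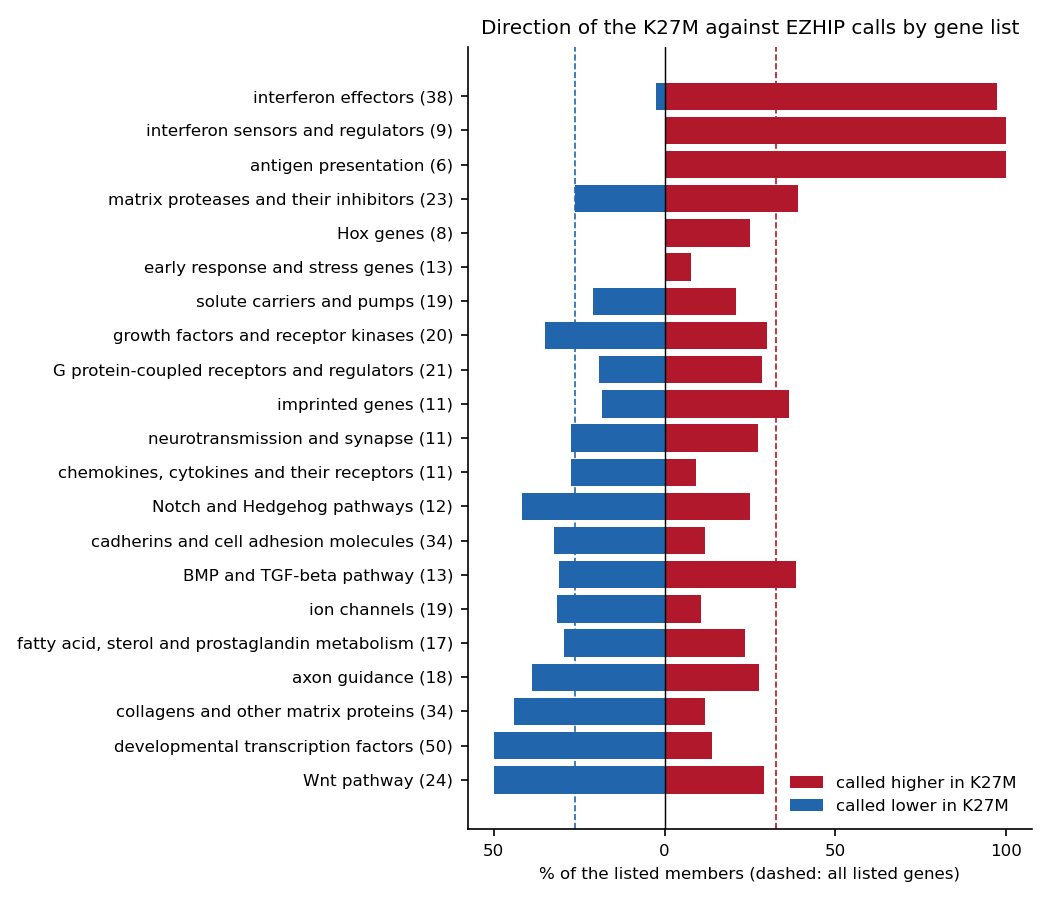
Share of the members of the gene lists that were called higher (red, to the right) or lower (blue, to the left) in K27M than in EZHIP cells. The lists with the fewest listed members (complement, cell cycle, muscle and PRC2 genes) are not drawn. The number of listed members stands in parentheses, and lists are ordered by median difference. The dashed lines mark the shares over all listed genes, 32.6% higher and 26.2% lower. Among the 380 genes lower in EZHIP than in control, 51.8% were called higher in K27M. Among the 495 genes higher in EZHIP than in control, 40% were called lower. Red bars reach 97.4% for interferon effectors, and blue bars reach 50% for developmental transcription factors and the Wnt pathway.

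Cell adhesion and axon guidance genes were called in both directions. Of 34 cadherins and adhesion molecules, 11 were lower and 4 higher in K27M (32.4% and 11.8%), beside 26.2% and 32.6% of all listed genes. The higher set was led by *Chl1*, a neural cell adhesion molecule of the L1 family, and *Icam1*, a receptor for leukocyte integrins. *Chl1* had 149 and 189 in K27M, 1.18 and 1.14 in EZHIP, 276 and 308 in control and 126 and 119 in EED-null cells. With 1 read in each EZHIP library, its ratio of 146 has a 95% counting interval of 40.3 to 1202. *Pkp1*, a desmosomal plaque protein, had 1.85 and 5.25 in K27M and 110.1 and 116 in EZHIP, and *Cdh6*, a cadherin of kidney and neural crest, had 3.71 and 2.62 and 43.8 and 29.6. Of the 12 listed genes of the gamma protocadherin cluster, *Pcdhga6* and *Pcdhga8* were called lower, and reads can be split between these similar genes.

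In axon guidance, 5 of 18 genes were higher and 7 lower in K27M (27.8% and 38.9%), beside 32.6% and 26.2% of all listed genes. The plexins, receptors for semaphorins, went opposite ways. *Plxna4* was almost silent in control cells, at 1.03 and 0.738, and had 114 and 154 in EZHIP, 83.2 and 84.3 in EED-null and 2704 and 3759.98 in K27M cells (log2 difference 4.58, adjusted p = 1.02e-05). *Plxnc1* had 26.9 and 34.97 in K27M, 679 and 637 in EZHIP, 243 and 264 in control and 592 and 631 in EED-null cells (log2 difference -4.38, adjusted p = 2.93e-06). The ligands *Slit3* and *Sema3e* were higher in K27M, by 2.75 and 2.49, while the SLIT receptors *Robo1* and *Robo2* were lower, at -1.70 and -1.36.

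Several genes whose products bind or convert retinoids, gathered here after their values were seen and not a list of their own, were called in both directions. *Crabp1* (chromosome 9, 54612555 to 54620917), a cytosolic retinoic acid carrier, had 45.4 and 54.2 in K27M, 2344 and 2217 in EZHIP, 465 and 467 in control and 973 and 954 in EED-null cells. Its log2 difference was -5.49 (standard error 0.12, adjusted p = 1.38e-06). *Aldh1a1*, a retinaldehyde dehydrogenase that makes retinoic acid, had 722 and 749.9 in K27M, 13.02 and 27.4 in EZHIP and 1.39 and 5.95 in EED-null cells (log2 difference 5.21). The retinaldehyde reductase *Dhrs3* and the related *Dhrs9* were higher, by 2.79 and 1.86, and the retinol dehydrogenase *Rdh10* was lower, at -1.27. *Cyp26b1*, which breaks down retinoic acid, had 38.03 and 28.8 in K27M and 61.5 and 49.02 in EZHIP and was not called.

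Of 17 genes of fatty acid, sterol and prostaglandin metabolism, 4 were called higher and 5 lower in K27M (23.5% and 29.4%). The shares over all listed genes were 32.6% and 26.2%. *Cyp51*, a demethylase of cholesterol synthesis, had 1839 and 1912 in K27M, 13141 and 13707 in EZHIP, 5397 and 5532 in control and 5787 and 6066 in EED-null cells (log2 difference -2.84, adjusted p = 2.86e-06). *Insig1*, a sterol-regulated brake on the pathway, differed by -1.02. *Sc5d* and *Lss* had differences of -0.92 and -0.83 and were not called, since they were under 2-fold.

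*Cdk6*, *Fzd1* and *Cyp51* are neighbours in the genome. In 10 Mb steps along the mm9 chromosomes, the first step of chromosome 5 held 20 listed genes, more than any other, and the step with the next most, on chromosome 11, held 12. The 20 genes, noticed after the values were seen, lie between 3.34 and 9.16 Mb and include *Cdk6*, *Cyp51*, *Fzd1*, the drug transporter *Abcb1b* and the replication kinase activator *Dbf4*. Each had a higher mean in EZHIP than in control cells, by 2.02-fold for *Dmtf1* to 8.77-fold for *Fzd1*. Their median ratio to control was 2.76 in EZHIP, beside 1.14 in K27M and 1.16 in EED-null cells. All 20 had a lower mean in K27M than in EZHIP, 16 of them called, with a median log2 difference of -1.32. The other 47 listed genes of chromosome 5 were called 20 times higher and 13 times lower, with a median of 0.81. Without the block 498 of 855 genes were called, 285 higher and 213 lower in K27M. The cause of the shared rise in EZHIP cells was not tested.

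Genes of excitable cells were called in both directions. Of 19 ion channels, 6 were lower and 2 higher in K27M (31.6% and 10.5%). Of 11 genes of neurotransmission 3 were called in each direction (27.3%). Over all listed genes 26.2% were called lower and 32.6% higher. *Kcna6*, a voltage-gated potassium channel, had 2.78 and 0 in K27M, 99.4 and 99.2 in EZHIP and 179 and 181 in EED-null cells. *Penk*, the precursor of enkephalins, had 0.927 and 1.75 in K27M, 153 and 157 in EZHIP, 18.5 and 5.17 in control and 151 in both libraries of EED-null cells. Its ratio of 116 has a 95% counting interval of 39.6 to 562. *Syt13*, a synaptotagmin, was lower in K27M at -4.88, and *Shank1*, a scaffold of the postsynaptic density, was higher by 3.58. *Trpv2* was called higher by 1.18, a call lost in 8 of the 15 alternative fits, among them those without EZHIP replicate 1, without K27M replicate 1 or 2 and without either control replicate.

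Among 21 G protein-coupled receptors and regulators, 6 were higher and 4 lower in K27M (28.6% and 19.05%), beside 32.6% and 26.2% of all listed genes. *Agtr2*, the type 2 angiotensin receptor, was at 0 in both EZHIP libraries and had 55.6 and 56.8 in K27M, 111 and 116 in control and 5.55 and 0.969 in EED-null cells. It was at least 16.1-fold higher in K27M (adjusted p = 1.02e-04). *Ednra*, the endothelin A receptor, had 134 and 125 in K27M, 3.55 and 5.70 in EZHIP and 99.6 and 106 in control. Solute carriers and pumps were called 4 higher and 4 lower of 19 (21.1% each), both under the shares over all listed genes. *Mfsd6* at 2.77 and the glutamate transporter *Slc1a2* at -1.72 led the 2 directions.

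Of 11 chemokines, cytokines and receptors, 3 were lower and 1 higher in K27M (27.3% and 9.1%), beside 26.2% and 32.6% of all listed genes. *Il1rl1*, the receptor for interleukin-33, had 93.2 and 57.7 in K27M, 604 and 595 in EZHIP and 30.8 and 9.60 in control. *Cxcl16* was higher, at 138 and 148 against 30.8 and 36.4. Without K27M replicate 1, without EZHIP replicate 1 or without either control replicate, 2 genes of the list were higher. Among 3 complement genes *Cd55*, an inhibitor of complement on the cell surface, was at 0 in both control libraries and had 395 and 412 in K27M and 23.7 and 34.2 in EZHIP.

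Of 11 imprinted genes, 4 were higher and 2 lower in K27M (36.4% and 18.2%), beside 32.6% and 26.2% of all listed genes. Besides *Dcn*, *Dlk1* and *Igf2*, *Rtl1*, a paternally expressed gene of the *Dlk1* domain, had 32.5 and 43.7 in K27M and 3.55 and 0 in EZHIP, and *Zdbf2* had 572 and 628 and 1687 and 1662. *Rtl1* has an antisense partner whose reads may not be told apart. *Phf19*, which recruits PRC2 to chromatin, was the single listed gene of the list of PRC2 subunits and histone H3.3. It had 339 and 327 in K27M, 112 and 123 in EZHIP, 311 and 275 in control and 229 and 204 in EED-null cells (log2 difference 1.49, adjusted p = 7.16e-05).

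The 467 genes in none of the 25 lists were called 155 times higher and 112 times lower (33.2% and 23.98%). The largest differences of the comparison were among them. *Chodl* (chromosome 16, 78931193 to 78951978), a lectin-like membrane protein of motor neurons and muscle, had 0 and 2.62 in K27M, 1148 and 1314 in EZHIP, 148 and 168 in control and 33.3 and 30.04 in EED-null cells. Its log2 difference was -9.34 (standard error 0.55, adjusted p = 2.20e-05), and its ratio of 939 has a 95% counting interval of 321 to 4553 from the 3 reads in K27M. *Fndc1*, a fibronectin type III protein, had 12.98 and 6.99 in K27M and 409.5 and 391 in EZHIP, with 188 and 192 in control. *Tcfap2c*, an AP-2 factor of trophoblast and germ cells, had 0 and 0.874 in K27M and 52.1 and 38.8 in EZHIP.

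In the other direction, *Rassf4* (chromosome 6, 116583026 to 116623854), a Ras-association domain protein, had 236 and 275 in K27M, 0 and 1.14 in EZHIP, 34.9 and 24.4 in control and 22.2 and 27.1 in EED-null cells, a log2 difference of 7.45 (adjusted p = 1.26e-05). *Auts2* (chromosome 5, 131913205 to 133019214), a neurodevelopmental gene whose protein is a partner of PRC1, had 448 and 535 in K27M, 3.55 and 4.56 in EZHIP, 124 and 144 in control and 649 and 617 in EED-null cells (log2 difference 6.61, adjusted p = 1.61e-06). EZHIP cells were thus the lowest of the 4 groups for *Auts2* and EED-null cells the highest. *Fry*, a large scaffold of the NDR kinase pathway, had 307 and 379 in K27M and 4.73 and 2.28 in EZHIP.

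The cells with the 2 inhibitors were at the same level, within the margin given above, for 189 genes (21.6%), and the other 172 uncalled genes could not be placed in either class. Early response and stress genes gave 8 of 13 at the same level and 1 called, *Fosb*, which was higher in K27M by 1.15 and lost its call without K27M replicate 2 (log2 difference 0.95). The genes at the same level with the largest rise over control included *Cxcl14*, a chemokine of epithelium and mesenchyme, with 1179.8 and 1049.9 in K27M, 947 and 927 in EZHIP, 10.3 and 12.5 in control and 3715 and 3751 in EED-null cells. The ratio of K27M to EZHIP was 1.19, with a 95% interval from limma of 0.957 to 1.47. *Isl1*, a LIM factor of motor neurons and heart, had 44.5 and 54.2 in K27M, 54.4 and 33.1 in EZHIP and 0 in both control libraries, and *Nkx2-3* had 27.8 and 33.2 and 22.5 and 23.9. *Gjb2*, connexin 26, had 21.3 and 13.99 and 24.9 and 18.2. *Homer2*, a synaptic scaffold, had 41.7 and 34.1 and 39.1 and 37.6, with an interval for the ratio of 0.778 to 1.25. *Jph1*, which ties the surface membrane to the sarcoplasmic reticulum, and *Sel1l3* had differences of -0.19 and -0.20. In *Isl1*, *Nkx2-3*, *Gjb2* and *Hoxd13* the EED-null libraries lay above all K27M and EZHIP libraries.

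Few markers of cell types were in the table, since it holds genes selected on EZHIP. Of 12 fibroblast markers 3 were listed, *Dcn* and *Fap* higher and *Col3a1* lower in K27M, so that fibroblast identity could not be checked through the rest. Of 8 endothelial markers *Kdr* was listed, of 8 epithelial markers *Epcam* and *Krt14*, of 8 neural markers *Sox2* and of 6 cartilage markers *Sox9*. *Epcam* had 68.6 and 81.3 in K27M and 21.3 and 10.3 in EZHIP and was called higher. *Krt14* had 40.8 and 59.4 and 37.9 and 26.2 and was not called. *Sox9* had 26.9 and 25.4 and 95.9 and 100.3 and was called lower. No marker of skeletal muscle, smooth muscle, blood or fat cells was listed. In these bulk cultures a different number of cells of a type and a different amount of RNA per cell cannot be told apart.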

How the data were processed

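RNA-seq of 8 MEF libraries, 2 per group, was analysed. Per the labels and the paper's methods, the authors depleted ribosomal RNA, aligned reads to a transcriptome of mm9 and estimated expression with RSEM 1.2.4, and EBSeq selected the listed genes. The deposited value is a signal, the estimated reads of a gene over 1 size factor per library. Per the paper, the samples carried spiked-in RNA of other cells, and whether that RNA entered the size factors, or whether counting used strand, is not given in the sources used here. In each library the values were multiples of 0.01 of a fixed step, which gives the estimated reads. Whole reads made up 72.2% to 82.5% of the values, so no count model was fitted.

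Groups came from the labels. limma 3.58.1 in R 4.3.3 was run on log2(value + 1), with 1 coefficient for each group and all 8 libraries in the fit, and was tested on simulated data. Summaries and figures used Python 3.11.15 with pandas 2.3.3, numpy 2.4.6, scipy 1.17.1 and matplotlib 3.10.9. A group at 0 was set at 3 reads per library, and ratios resting on 1 to 3 reads carry an exact counting interval that covers counting error only. The median gene held 92 to 170 reads. Positions came from an mm9 annotation, where 850 gene names were unique, 19 were missing and 6 were repeated.

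The genes compared, the 25 lists and the tests were chosen with earlier results of these data known. Named genes were the 12 largest called differences in each direction with a higher mean of at least 30, up to 3 called genes per list and direction, the 6 most abundant called genes, the 8 genes of equal level that differed most from control, and listed cell type markers. Other list members named were chosen after their values were seen. Genes left out by that rule's exceptions have near-identical copies or no known role.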

Additional observations from a re-analysis of the deposited data

Results flagged for a closer look

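For 116 genes both K27M libraries lay above both control libraries while both EZHIP libraries lay below them, and K27M was called higher than EZHIP. They include 35 interferon effectors, 8 interferon sensors and regulators, 5 antigen-presentation genes and 5 matrix proteases or inhibitors, and 51 of them are in no list. The mean of *Car9*, carbonic anhydrase IX, chosen here after its values were seen, was 394 in K27M and 17.3 in EZHIP, beside 116 in control and 4.78 in EED-null cells. For 58 genes the order was the opposite, with K27M below and EZHIP above both control libraries and K27M called lower. Among them are *Chodl*, *Penk*, *Crabp1*, *Cyp51*, *Igf2* and *Fndc1*, and 32 are in no list. The K27M against EZHIP difference of these genes was tested by limma, while their arrangement around control was not tested. The EZHIP side of it is fixed by how the list was made, and both sides use the same 2 control libraries.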

How the results depend on the processing

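The count of 514 called genes was 514 with a mean of at least 5, 517 with only the K27M and EZHIP libraries, 490 and 500 with pseudocounts of 0.1 and 5, 514 after rescaling on the listed genes and 520 with a trend of the spread on level. Leaving out 1 library at a time gave 486 to 512 calls, 266 to 286 higher and 220 to 231 lower in K27M. Adjusted p alone gave 710. Without the block at the start of chromosome 5, chosen after the data were seen, 498 were called. Rescaling changed the share of higher calls from 55.5% to 49.8%. In no fit did a called gene change its direction. The number of genes at the same level was 189, and 153 to 223 in the alternatives. Of the 119 called genes named by the rule, 113 kept their call in every fit, while *Chrnd*, *Gata4*, *Matn4*, *Rspo1*, *Trpv2* and *Fosb* lost it in at least 1, and the cause was not tested.

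Same-numbered libraries did not deviate together, with correlations of their deviations from the group means between -0.089 and 0.105. No pairing by number was thus seen in these values, but with 2 libraries per group this check cannot exclude it. With the replicate block, 513 genes were called, of which 512 were shared with the 514. The planned stricter form of the promoter core was not run, since too few promoters were matched. With 2 libraries per group and few reads in low genes, differences of genes near 0 rest on single reads.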

Other observations

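Several genes of mesothelium, the lining of body cavities, were higher in K27M than in EZHIP cells. From a list of 16 mesothelial genes chosen after the data were seen, 8 were listed. Of these, 7 were called higher (*Wt1*, *Upk3b*, *Upk1b*, *Gpm6a*, *Bnc1*, *Aldh1a1* and *Rspo1*) and *Msln* was called lower in K27M. Over all listed genes 32.6% were called higher. Because the list was made with these values known, its count and sums are a description and no support for a shared direction. *Wt1*, a transcription factor of mesothelium and kidney, had 1013 and 1277 in K27M, 26.04 and 31.9 in EZHIP, 0 and 0.738 in control and 58.2 and 62.02 in EED-null cells. *Upk3b*, an uroplakin, had 2065 and 2699.7 in K27M, 162 and 145 in EZHIP, 13.3 and 17.7 in control and 29.1 and 31.98 in EED-null cells. *Msln*, mesothelin, had 823 and 1057 in K27M, 2503 and 2402 in EZHIP and 402 and 385 in control. The summed level of the 8 genes was 7303 and 8935 in the K27M libraries, 2930 and 2819 in those of EZHIP, 424 and 411 in those of control and 1010 in both of EED-null. Whether the cultures held different shares of such cells was not tested.

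By chromosome, the median K27M minus EZHIP difference ran from -0.75 on chromosome 13 (31 genes) to 1.23 on chromosome 11 (59 genes, 32 called higher). Of those 32 genes, 8 are in the interferon or antigen-presentation lists. Without these lists the medians ran from -0.94 on chromosome 5 to 0.81 on chromosome 11. Chromosome 5 had the largest share called lower, 29 of 67 genes (43.3%), of which 16 lie in the block at its start, and a median of -0.61 with all its genes. These values are a description and were not tested.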
